A study of Homo sapiens with 4 samples.

Results

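Matrix metalloproteinases (MMPs), the secreted ADAMTS proteases and the tissue inhibitors of metalloproteinases (TIMPs) were examined in cells that had lost calumenin. The set was every protein-coding gene of the deposited expression table whose symbol is MMP, ADAMTS or TIMP followed by its number, which gave 46 genes of 58735 in the table (23 MMP, 19 ADAMTS and 4 TIMP genes). RNA sequencing covered 4 libraries labelled HFL1 cells, the name of an established human fetal lung fibroblast line. Several fibroblast markers were absent from these libraries, and epithelial keratins were abundant in them, as given below. Both KO libraries came from cells labelled as calumenin knockout, and both WT libraries from the same line labelled wild type. No treatment, time point or further allele is given for either group. How calumenin was removed, and whether the KO cells were a single clone, is not in the labels. Nor do they name separate cultures within a group. The spread behind each p-value comes from 2 libraries a group, moderated by the spread of other genes, and may be technical. The design text names senescence and fibrosis signalling as the question behind the loss of calumenin, which binds calcium in the endoplasmic reticulum and along the secretory route.

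MMPs are zinc-dependent endopeptidases that are made as inactive precursors and cleave collagens, proteoglycans and other matrix proteins. ADAMTS proteases share the metalloprotease fold, carry thrombospondin repeats, and process procollagens, cleave large proteoglycans or act on single blood and matrix glycoproteins. TIMPs bind the active site of MMPs, and TIMP3 also blocks ADAMTS proteases, so that the balance of enzymes and inhibitors bears on how much matrix can be degraded. Transcript levels do not show how much enzyme was active.

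Promoter sequences of 5 genes are shown because these genes carried the changes described below: MMP7, MMP24 and ADAMTS10 were the protease genes with the highest levels in KO cells, and TIMP4 and TIMP3 were the inhibitor genes with the largest differences. Each is the 250 bases before the annotated transcription start, written 5′ to 3′ on the gene's strand, from RefSeq on GRCh38.p14. The stretches are chr11:102530748-102530997 (minus strand) for MMP7, chr20:35226440-35226689 (plus strand) for MMP24, chr19:8610716-8610965 (minus strand) for ADAMTS10, chr3:12158913-12159162 (minus strand) for TIMP4 and chr22:32801455-32801704 (plus strand) for TIMP3. Capitals mark matches, on either strand, to the AP-1 motif TGAGTCA, the TATA box TATAAA and the GC box GGGCGG.
MMP7: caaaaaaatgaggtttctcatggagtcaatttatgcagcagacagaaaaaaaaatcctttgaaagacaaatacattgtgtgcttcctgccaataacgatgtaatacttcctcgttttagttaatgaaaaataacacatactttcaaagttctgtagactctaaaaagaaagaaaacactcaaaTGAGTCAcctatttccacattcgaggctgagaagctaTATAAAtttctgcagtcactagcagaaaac
MMP24: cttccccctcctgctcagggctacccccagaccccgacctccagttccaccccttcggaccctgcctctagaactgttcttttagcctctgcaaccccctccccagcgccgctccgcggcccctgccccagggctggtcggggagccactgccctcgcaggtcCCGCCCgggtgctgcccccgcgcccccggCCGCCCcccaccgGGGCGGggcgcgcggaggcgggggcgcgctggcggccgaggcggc
ADAMTS10: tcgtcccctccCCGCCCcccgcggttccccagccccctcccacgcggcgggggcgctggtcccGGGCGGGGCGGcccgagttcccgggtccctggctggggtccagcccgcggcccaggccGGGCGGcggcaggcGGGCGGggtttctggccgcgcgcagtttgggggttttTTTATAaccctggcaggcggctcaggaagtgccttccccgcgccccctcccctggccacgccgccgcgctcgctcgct
TIMP4: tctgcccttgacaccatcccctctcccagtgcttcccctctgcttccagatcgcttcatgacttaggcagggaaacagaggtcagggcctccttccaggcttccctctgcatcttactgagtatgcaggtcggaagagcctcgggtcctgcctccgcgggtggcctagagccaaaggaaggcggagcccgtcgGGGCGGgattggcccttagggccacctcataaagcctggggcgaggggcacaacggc
TIMP3: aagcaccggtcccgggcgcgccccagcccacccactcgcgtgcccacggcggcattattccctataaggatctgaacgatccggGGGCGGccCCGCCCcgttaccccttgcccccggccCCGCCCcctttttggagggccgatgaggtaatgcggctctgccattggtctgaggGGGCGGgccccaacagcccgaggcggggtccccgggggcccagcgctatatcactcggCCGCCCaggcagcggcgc
The motifs were searched in windows of 300 bases, from 250 before to 50 after the start. RefSeq windows were matched for 27 of the 46 genes, 9 of them among the 15 genes tested below. The MMP genes without a window, which were not searched, were MMP1, MMP2, MMP3, MMP9, MMP12, MMP13, MMP16, MMP17, MMP19, MMP25 and MMP28. MMP7 was the single gene of the 27 with an AP-1 match, at -67 from the start, and such a match occurred in 4.95% of 35116 windows of the same length. A TATA box match stood at -30 in MMP7, and 7 of the 27 windows had a TATA box match, against 11.5% of all windows. GC box matches occurred in 19 of the 27 windows and in 45.0% of all windows. The matches of ADAMTS10 at -187 and -182 share 1 base. GC content was 35.7% in the MMP7 window, against 80.0% for MMP24, 79.3% for ADAMTS10, 64.0% for TIMP4 and 72.7% for TIMP3, with a median of 58.7% over all windows. The TIMP4 window does not hold the gene's 5′ end in the expression table, and for ADAMTS10 the window that does was used. Among the windows not printed, those of ADAMTS13, ADAMTS14, ADAMTS20, MMP8, MMP11 and MMP26 do not hold it either. A match describes these letters and is not evidence of binding.

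The libraries held 17699349 and 16622382 reads in KO and 17715774 and 16173899 reads in WT, recovered from the deposited values, which are FPKM (fragments per kilobase of exon, scaled by sequencing depth). CALU, the targeted gene, stood at 6.59 and 5.95 FPKM in KO against 87.7 and 81.8 FPKM in WT, and fell by 3.56 on the log2 scale (limma adjusted p = 0.00154, SE 0.14). The fibroblast label was checked against 13 marker genes. Of these, 8 stayed below 1 FPKM in every library and COL1A2 and POSTN had 0 reads. COL1A1, THY1, VIM, S100A4 and FN1 exceeded 1 FPKM in at least 1 library. VIM had 106 and 84.6 FPKM in KO against 76.5 and 46.8 FPKM in WT. FN1 had 126 and 111 FPKM in KO against 34.7 and 28.9 FPKM in WT. The markers were mixed and as a list do not bear out the label. In limma 2 of the 13 rose, FN1 and COL1A1 (which passed the filter through the KO libraries only), and 0 fell. S100A4 was the 1 marker lower at an unadjusted limma p under 0.05. By limma-voom 3 were higher (FN1, COL1A1 and VIM) and 3 lower (S100A4, LUM and PDGFRA). PDGFRA passed the read filter through the WT libraries only. The summed level of the 13 was 687 and 924 FPKM in KO and 1046 and 1430 FPKM in WT, mostly from S100A4. Without S100A4 the order of the groups turned round, with 238 and 201 FPKM in KO and 113 and 78.2 FPKM in WT. Of 8 epithelial markers, 1 stayed below 1 FPKM in every library. KRT8 had 731 and 926 FPKM in KO against 349 and 425 FPKM in WT. KRT8, KRT18, KRT19 and CDH1 rose, and KRT15 and CLDN4 fell, both of which passed the filter through the WT libraries only. The summed level of the 8 was 1530 and 1760 FPKM in KO and 708 and 815 FPKM in WT. Of 5 endothelial and 5 leukocyte markers, 5 and 4 stayed below 1 FPKM in every library, with CD3E at 0. The summed levels of the endothelial markers were 0.214 and 0.237 FPKM in KO and 0.825 and 0.937 FPKM in WT. Those of the leukocyte markers, nearly all from CD14, were 5.89 and 6.55 FPKM in KO and 20.2 and 17.7 FPKM in WT. The mural markers, 4 of 6 rows of which never reached 1 FPKM, had summed levels of 6.28 and 6.24 FPKM in KO and 6.18 and 5.96 FPKM in WT. The part of these marker levels in the protease and inhibitor results below was not tested. In bulk RNA, fewer cells of a type and less RNA per cell cannot be told apart.

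Of the 46 genes, 15 reached at least 1 FPKM in at least 2 libraries and were tested. In KO cells 4 of them rose (MMP7, MMP24, ADAMTS10 and ADAMTS15) and 6 fell (TIMP2, TIMP4, MMP2, MMP17, MMP28 and ADAMTS13), at a Benjamini-Hochberg adjusted p under 0.05 from limma on log2(FPKM + 1). Over all 14100 genes tested the same rule called 12.1% as higher and 11.1% as lower, 23.3% in all. TIMP1, MMP14, MMP15, MMP16 and ADAMTS7 did not pass. The median log2 change of the 15 was -0.47, and over all genes tested it was 0.03. The KO libraries lay above both WT libraries for 4 of the 15 genes, below them for 10, and overlapped them for MMP15, where 34.4% and 31.3% of all genes tested lay above and below. MMP28 passed the filter only through the WT libraries, so a difference was required for it to be tested, and these counts are a description of the genes that were measured.

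**Figure D1:**
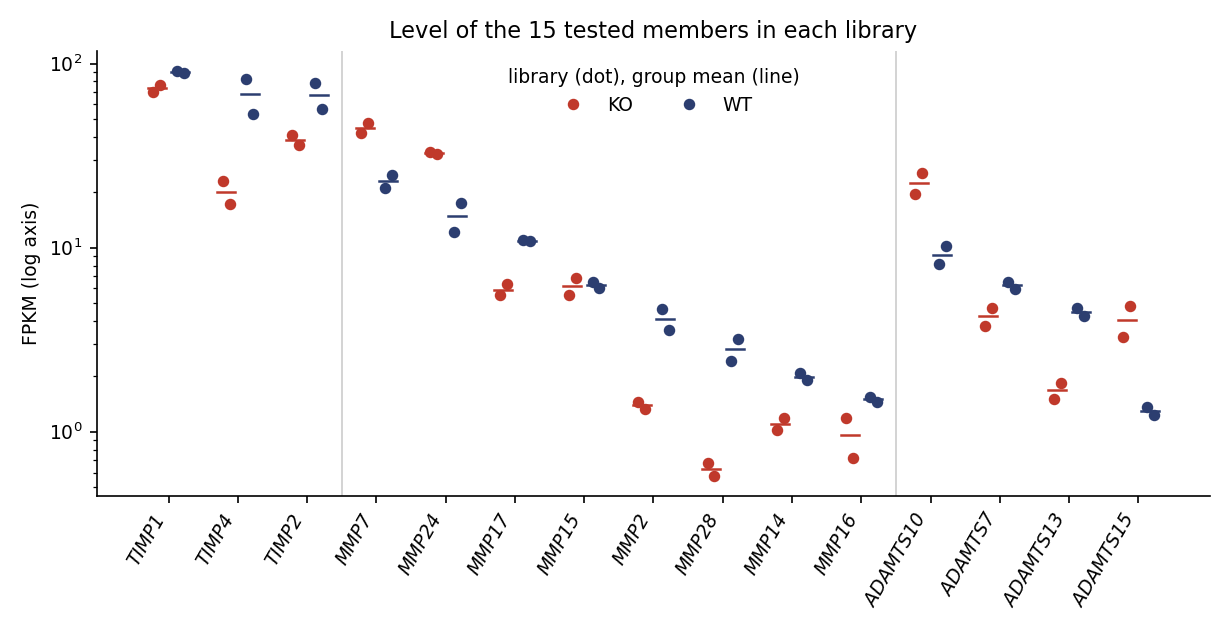
Level of each of the 15 tested genes by library, as FPKM on a log axis, with KO libraries in red left of WT libraries in blue and a line at each group mean (n = 2 libraries each); vertical grey lines part the TIMP, MMP and ADAMTS genes. TIMP1 is the most abundant gene in KO, at 70.1 and 76.6 FPKM, and MMP15 is the single gene whose groups overlap.

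TIMP1 was the most abundant gene of the set in every library, and the changes among the inhibitors were to lower levels in KO. Of the 4 TIMP genes, 3 were tested, and 2 fell and 0 rose. Also 0 rose at an unadjusted limma p under 0.05, and 0 of 4 by limma-voom on the recovered reads. Over all genes tested by limma, 11.1% fell and 12.1% rose. TIMP4, a secreted inhibitor with a narrow tissue distribution (ENSG00000157150, chromosome 3, 12153051 to 12159351, minus strand), had 23.0 and 17.2 FPKM in KO against 82.7 and 53.4 FPKM in WT. Both KO libraries were below both WT libraries, and the WT libraries lay further apart than the KO libraries. The mean was 20.1 ± 4.08 FPKM in KO and 68.0 ± 20.8 FPKM in WT (SD, n = 2 each), 3.39-fold lower in KO, with a log2 change of -1.69 (limma adjusted p = 0.0117, SE 0.26). Its call held in each fit that left out 1 library.

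TIMP2, which inhibits MMPs and also takes part in the activation of pro-MMP2 at the cell surface (ENSG00000035862, chromosome 17, 78852977 to 78925387, minus strand), had 41.1 and 36.0 FPKM in KO against 78.8 and 56.9 FPKM in WT. All KO values were below all WT values. The mean level was 38.6 ± 3.58 FPKM in KO and 67.8 ± 15.5 FPKM in WT, with a log2 change of -0.78 (limma adjusted p = 0.0432, SE 0.20). The call was lost when any 1 library was left out, with an adjusted p of 0.0721 without KO replicate 1, 0.108 without KO replicate 2, 0.258 without WT replicate 1 and 0.0637 without WT replicate 2, and it ran from 0.00456 to 0.258 over 11 alternatives. TIMP1, a broad inhibitor of secreted MMPs (ENSG00000102265, chromosome X, 47582313 to 47586789, plus strand), had 70.1 and 76.6 FPKM in KO against 91.2 and 89.1 FPKM in WT. The groups did not overlap, but the log2 change of -0.30 (SE 0.14, 95% interval -0.66 to 0.06) did not pass (limma adjusted p = 0.192).

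TIMP3, the inhibitor that is held in the matrix and also blocks ADAM and ADAMTS proteases, lay just under the filter (ENSG00000100234, chromosome 22, 32801701 to 32863043, plus strand). It had 0 and 2 reads in KO against 86 and 67 reads in WT, which is 0 and 0.0265 FPKM in KO and 1.02 and 0.888 FPKM in WT. The level in KO was 0.0134 times that in WT by read counts (95% interval 0.00160 to 0.0491, exact, for counting error only). TIMP3 therefore had reads in 1 of the 2 KO libraries and in both WT libraries. It passed the read filter of limma-voom through the WT libraries alone and was called there (adjusted p = 0.000256). TIMP1, TIMP3 and TIMP4 are nested in the synapsin genes SYN1, SYN3 and SYN2, on the opposite strand. SYN2 shares 10.3% of the exon bases of TIMP4 on the opposite strand and had 128 and 58 reads in KO against 270 and 189 reads in WT (limma adjusted p = 0.0575). SYN1 and SYN3 shared 0 exon bases with their TIMP gene and had at most 12 reads in a library. Whether counting used the strand is not given in the sources used here, so reads in shared exons could belong to either gene.

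The matrilysin MMP7 had the highest level of all proteases of the set in every library. MMP7, a small MMP without a hemopexin domain that is made mainly by epithelial cells (ENSG00000137673, chromosome 11, 102520508 to 102530753, minus strand), had 42.2 and 47.3 FPKM in KO against 21.2 and 24.7 FPKM in WT. Both KO libraries were above both WT libraries. The mean was 44.8 ± 3.58 FPKM in KO and 23.0 ± 2.48 FPKM in WT, 1.95-fold higher, with a log2 change of 0.93 (limma adjusted p = 0.0136, SE 0.15). The call was lost without WT replicate 1 (adjusted p = 0.113) and without WT replicate 2 (0.0565), and the adjusted p ran from 0.00173 to 0.113 over 11 alternatives. MMP26, the other matrilysin, had 0 reads in all libraries, which at 3 reads allows up to 0.140 FPKM for counting error only.

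Of the 6 membrane-type MMPs, 5 were tested, of which 1 rose, 1 fell and 3 did not pass. The shares over all genes tested by limma were 12.1% higher and 11.1% lower. MMP24, a transmembrane MMP best known from nervous tissue (ENSG00000125966, chromosome 20, 35226654 to 35277000, plus strand), had 32.9 and 32.3 FPKM in KO against 12.1 and 17.5 FPKM in WT. The KO values were close to each other and above both WT values. The mean was 32.6 ± 0.410 FPKM in KO and 14.8 ± 3.76 FPKM in WT, with a log2 change of 1.11 (limma adjusted p = 0.0159, SE 0.19, adjusted p = 0.0925 without WT replicate 1 and 0.00131 to 0.0925 over 11 alternatives). Its opposite-strand neighbour MMP24OS shares 18.1% of the MMP24 exon bases and had 757 and 841 reads in KO against 519 and 650 reads in WT, with a log2 change of 0.43 (limma adjusted p = 0.157). MMP17, a membrane-type MMP with a glycolipid anchor (ENSG00000198598, chromosome 12, 131828393 to 131851783, plus strand), had 5.52 and 6.33 FPKM in KO against 10.96 and 10.8 FPKM in WT. Both KO values lay below both WT values, with a log2 change of -0.78 (limma adjusted p = 0.0151, SE 0.13). That call was lost without WT replicate 1 (adjusted p = 0.116) and without WT replicate 2 (0.0990), with a range of 0.00395 to 0.116 over 11 alternatives.

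MMP14, the main cell-surface activator of pro-MMP2 and itself a collagenase, had 1.02 and 1.19 FPKM in KO against 2.07 and 1.90 FPKM in WT. The groups did not overlap, and the log2 change was -0.50 (limma adjusted p = 0.0676, SE 0.15, 95% interval -0.89 to -0.12). By limma-voom on reads it was called lower (adjusted p = 0.0260), so its call depends on the test. MMP15, another transmembrane MMP, had 5.54 and 6.86 FPKM in KO against 6.51 and 6.05 FPKM in WT. These ranges overlapped and the log2 change was -0.02 (95% interval -0.40 to 0.35, limma adjusted p = 0.937). MMP16, a transmembrane MMP that can activate pro-MMP2, had 1.19 and 0.720 FPKM in KO against 1.55 and 1.46 FPKM in WT, with a log2 change of -0.37 (95% interval -0.83 to 0.10, limma adjusted p = 0.208). MMP25, which has a glycolipid anchor like MMP17, stayed under the filter with 16 and 34 reads in KO against 20 and 33 reads in WT. Its groups overlapped, its read ratio was 0.964 (95% counting interval 0.642 to 1.45), and it shares 35.2% of its exon bases with the opposite-strand gene MMP25-AS1.

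The gelatinases degrade denatured collagen and type IV collagen. MMP2, which is widely made by fibroblasts (ENSG00000087245, chromosome 16, 55389700 to 55506691, plus strand), had 1.46 and 1.34 FPKM in KO against 4.63 and 3.59 FPKM in WT. Every KO value was below every WT value. The mean was 1.40 ± 0.0864 FPKM in KO and 4.11 ± 0.739 FPKM in WT, 2.94-fold lower, with a log2 change of -1.08 (limma adjusted p = 0.0114, SE 0.16, adjusted p = 0.0639 without WT replicate 1 and 0.000825 to 0.0664 over 11 alternatives). MMP9, known from leukocytes and activated epithelium (ENSG00000100985, chromosome 20, 46008908 to 46016561, plus strand), was under the filter with 5 and 4 reads in KO against 24 and 23 reads in WT. Its groups did not overlap and its read ratio was 0.196 (95% counting interval 0.0843 to 0.404). Limma-voom called it lower (adjusted p = 0.0143), and it too passed the read filter through the WT libraries alone. The opposite-strand gene SLC12A5-AS1 shares 18.4% of its exon bases.

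MMP28, an MMP of epithelia and testis known as epilysin (ENSG00000271447, chromosome 17, 35756249 to 35795707, minus strand), had 0.679 and 0.577 FPKM in KO against 2.43 and 3.20 FPKM in WT. Both KO libraries were below 1 FPKM and both WT libraries above 2.4 FPKM. The mean was 0.628 ± 0.0726 FPKM in KO and 2.82 ± 0.543 FPKM in WT, 4.49-fold lower, with a log2 change of -1.22 (limma adjusted p = 0.010, SE 0.17). This call held in each fit that left out 1 library, over the same filtered genes. MMP28 passed that filter through the WT libraries only, so a difference was required for it to be tested. MMP19, an MMP first described in synovial vessels, had 0 and 3 reads in KO against 10 and 12 reads in WT, a read ratio of 0.139 (95% counting interval 0.0267 to 0.464). The opposite-strand gene TMEM198B shares 17.4% of its exon bases. MMP21, which is known from embryonic left-right patterning, had 4 and 3 reads in KO against 8 and 10 reads in WT (read ratio 0.397, 95% counting interval 0.140 to 0.997). MMP11, a stromelysin of remodelling stroma, had 3 and 7 reads in KO against 8 and 13 reads in WT (read ratio 0.487, 95% counting interval 0.205 to 1.08). The KO libraries were below the WT libraries for all 3 genes, and MMP11's interval includes equal levels. The opposite-strand gene CHCHD10 shares 4.21% of the MMP11 exon bases. It had 523 and 693 reads in KO against 700 and 871 reads in WT.

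**Figure D2:**
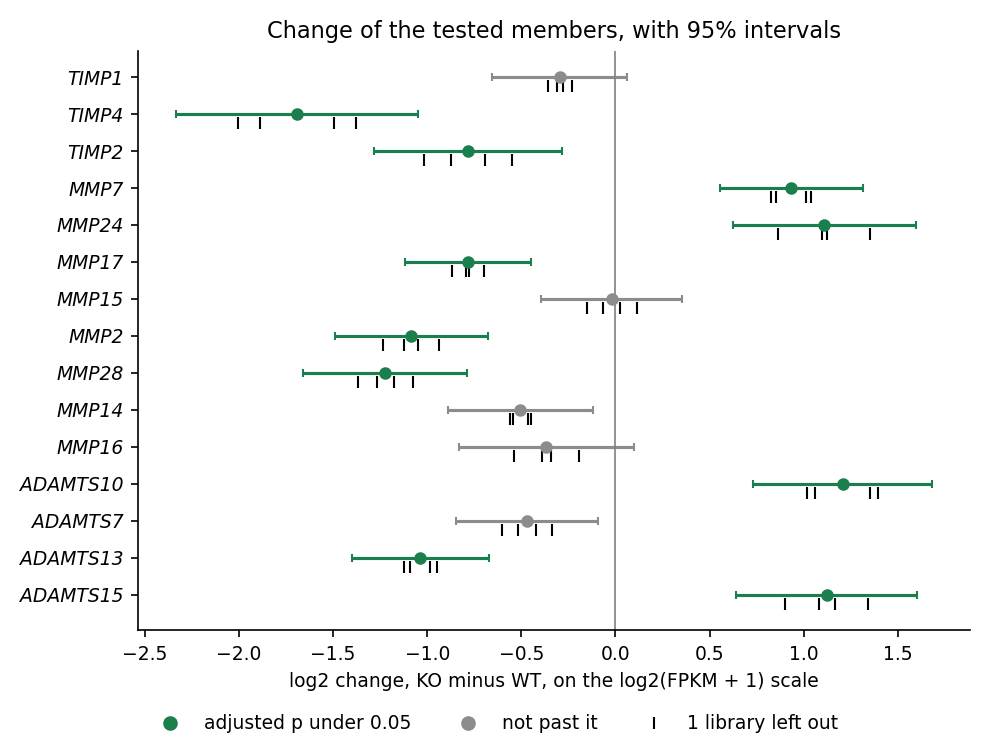
Log2 change, KO minus WT, on the log2(FPKM + 1) scale of the 15 tested genes, with 95% intervals from limma; green points have an adjusted p under 0.05, grey points do not, and short black ticks give the change when 1 library is left out. TIMP4 has the most negative change on this scale, -1.69, and the ticks of MMP15 fall on both sides of 0. By ratio of mean FPKM, MMP28 differs more, at 4.49-fold lower against 3.39-fold lower for TIMP4.

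The classic inducible MMPs lie side by side on chromosome 11, and apart from MMP7 they were close to silent in every library. This cluster holds 9 MMP genes over 435 kb, from 102520508 to 102955734, in the order MMP7, MMP20, MMP27, MMP8, MMP10, MMP1, MMP3, MMP12 and MMP13. They include the collagenases MMP1, MMP8 and MMP13, which cut native fibrillar collagen, the stromelysins MMP3 and MMP10, the macrophage elastase MMP12 and the enamel protease MMP20. MMP7 had 1718 and 1800 reads in KO against 900 and 942 reads in WT. The other 8 genes together had 4 reads in KO and 37 reads in WT, with reads in 2 of the 8 genes in KO and in 5 in WT, and MMP8 and MMP27 at 0 throughout. MMP3 had 0 reads in both KO libraries and 11 and 4 reads in WT. Its WT level was 4.89 times a floor of 3 reads over both KO libraries, which leaves out counting error in WT. The exact 95% counting interval of its KO to WT read ratio ended at 0.285. MMP1 had 0 reads in both KO libraries and 5 and 2 reads in WT. Its WT level was 2.28 times the same floor, and the 95% counting interval of its read ratio ended at 0.709. MMP10 had 0 and 3 reads in KO against 4 and 4 reads in WT, a read ratio of 0.383 (95% counting interval 0.0655 to 1.60), which includes equal levels. These 8 genes were too shallowly covered for a test between groups. RefSeq promoter windows were matched for 5 of the 9 genes, with a GC content of 33.3% to 44.3% and a TATA box match in 4. These matches began at -30 in MMP7, -31 in MMP10, -72 in MMP20 and -110 in MMP8. The MMP8 window does not hold the gene's 5′ end in the expression table. Among the other 22 matched genes of the set the windows had a GC content of 39.0% to 80.3%, and 3 had a TATA box match.

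**Figure D3:**
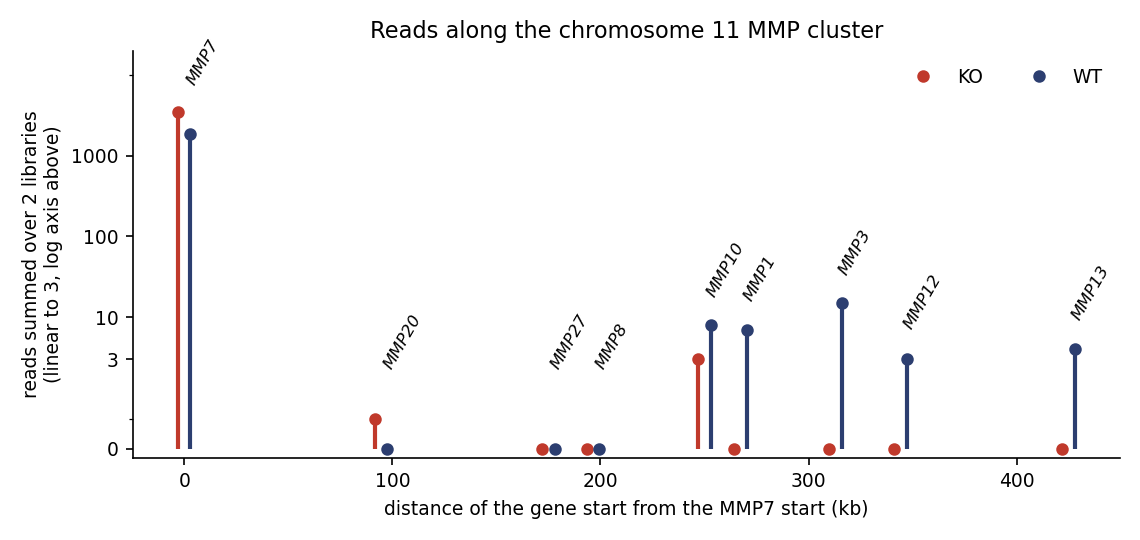
Reads summed over the 2 libraries of each group (KO red, WT blue) for the 9 MMP genes of the chromosome 11 cluster, against the distance of each gene's start from that of MMP7 in kb; the read axis is linear to 3 and logarithmic above. MMP7 has 3518 reads in KO and 1842 in WT, and no other gene has more than 15.

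Among the ADAMTS proteases, 4 of 19 were tested, of which 2 rose, 1 fell and 1 did not pass. Limma called 12.1% of all genes tested as higher and 11.1% as lower. ADAMTS10, which binds fibrillin microfibrils and is mutated in Weill-Marchesani syndrome (ENSG00000142303, chromosome 19, 8580242 to 8610735, minus strand), had 19.5 and 25.5 FPKM in KO against 8.11 and 10.2 FPKM in WT. Both KO libraries stood above both WT libraries. The mean was 22.5 ± 4.28 FPKM in KO and 9.14 ± 1.46 FPKM in WT, 2.46-fold higher, with a log2 change of 1.21 (limma adjusted p = 0.0126, SE 0.19, adjusted p = 0.0699 without WT replicate 1 and 0.000762 to 0.0699 over 11 alternatives). ADAMTS6, its close homologue, was under the filter with 99 and 53 reads in KO against 34 and 28 reads in WT. Its groups did not overlap, and limma-voom called it higher, with a log2 change in reads of 1.25 (SE 0.39, adjusted p = 0.0324). This call was lost without KO replicate 1 (adjusted p = 0.135), WT replicate 1 (0.0843) and WT replicate 2 (0.0956), with a range of 0.000832 to 0.270 over 7 alternatives.

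The proteoglycan-cleaving ADAMTS proteases cut aggrecan and versican. ADAMTS15 (ENSG00000166106, chromosome 11, 130448974 to 130476641, plus strand) was the single gene of these 7 to be tested, with 3.28 and 4.82 FPKM in KO against 1.36 and 1.23 FPKM in WT. Both KO values were above both WT values. The mean was 4.05 ± 1.09 FPKM in KO and 1.29 ± 0.0959 FPKM in WT, 3.13-fold higher, with a log2 change of 1.12 (limma adjusted p = 0.0151, SE 0.19). The call was lost without WT replicate 1 (adjusted p = 0.0561) and without WT replicate 2 (0.0624), with a range of 0.00100 to 0.0824 over 11 alternatives. ADAMTS8, which lies 20.0 kb away on the same chromosome and opposite strand, had 21 and 14 reads in KO against 13 and 8 reads in WT (read ratio 1.70, 95% counting interval 0.964 to 3.08, limma-voom adjusted p = 0.315). ADAMTS9, a widely expressed versicanase also needed at the base of cilia (ENSG00000163638, chromosome 3, 64515654 to 64688000, minus strand), had 180 and 148 reads in KO against 76 and 54 reads in WT. Its groups did not overlap, and limma-voom called it higher (log2 change in reads 1.37, SE 0.27, adjusted p = 0.00353). ADAMTS1, the founding member of the family, had 7 and 10 reads in KO against 22 and 17 reads in WT, did not overlap and did not pass (limma-voom adjusted p = 0.130). ADAMTS4, an aggrecanase, had 4 and 2 reads in KO against 4 and 5 reads in WT, ADAMTS20 had at most 2 reads in a library, and ADAMTS5, which lies 72.5 kb from ADAMTS1, had 0 reads.

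ADAMTS13, the protease that cuts von Willebrand factor (ENSG00000160323, chromosome 9, 133414358 to 133459402, plus strand), had 1.51 and 1.84 FPKM in KO against 4.68 and 4.28 FPKM in WT. All KO values were below all WT values. The mean was 1.67 ± 0.232 FPKM in KO and 4.48 ± 0.289 FPKM in WT, 2.67-fold lower, with a log2 change of -1.04 (limma adjusted p = 0.00976, SE 0.15, adjusted p = 0.0607 without WT replicate 1 and 0.000688 to 0.0607 over 11 alternatives). The homologues ADAMTS7 and ADAMTS12, which cut cartilage oligomeric matrix protein, were called in opposite directions by limma-voom. ADAMTS7 (ENSG00000136378) had 3.77 and 4.71 FPKM in KO against 6.47 and 5.99 FPKM in WT, with a log2 change of -0.47 (SE 0.15) that did not pass in limma (adjusted p = 0.0758) and passed in limma-voom (adjusted p = 0.0393). ADAMTS12 (ENSG00000151388, chromosome 5, 33523535 to 33892192, minus strand), just under the filter at 1.06 and 0.936 FPKM in KO against 0.157 and 0.187 FPKM in WT, had 182 and 150 reads in KO against 28 and 30 reads in WT. Its groups stood far apart, and limma-voom called it higher (log2 change in reads 2.53, SE 0.32, adjusted p = 0.000272), also in each fit that left out 1 library.

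ADAMTS3, which removes the amino-terminal propeptide of procollagen II and processes the lymphatic growth factor VEGFC, had 2 and 1 reads in KO against 12 and 12 reads in WT, a read ratio of 0.128 (95% counting interval 0.0246 to 0.421). ADAMTS16 had 34 and 33 reads in KO against 29 and 20 reads in WT (read ratio 1.40, 95% counting interval 0.952 to 2.06, limma-voom adjusted p = 0.378). The KO libraries did not overlap the WT libraries for either gene. Limma-voom tested 26 of the 46 genes, called 7 higher and 12 lower, and called 14.7% of all 17139 genes it tested as higher, 15.4% as lower and so 30.2% in either direction. Of the 11 it added below the FPKM filter, 3 were higher (ADAMTS6, ADAMTS9 and ADAMTS12), 4 were lower (TIMP3, MMP9, MMP19 and ADAMTS3) and 4 did not pass. All 4 lower genes entered that test through the WT libraries alone. The ADAMTS3 call was lost without WT replicate 1 (adjusted p = 0.0691) and WT replicate 2 (0.0811), with a range of 0.00477 to 0.189 over 6 alternatives, and that of MMP19 without KO replicate 1 (0.134) and WT replicate 2 (0.0711), with a range of 0.000459 to 0.262 over 7. Neither test covered the other 20 genes. Of these, MMP3, MMP11 and MMP21 had at least 10 reads in 1 library, and the rest had 1 to 9 reads in their highest library (11 genes, MMP1, MMP10, MMP12, MMP13, MMP20, MMP23B, ADAMTS2, ADAMTS4, ADAMTS17, ADAMTS18 and ADAMTS20) or 0 reads in all libraries (6 genes, MMP8, MMP26, MMP27, ADAMTS5, ADAMTS14 and ADAMTS19).

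**Figure D4:**
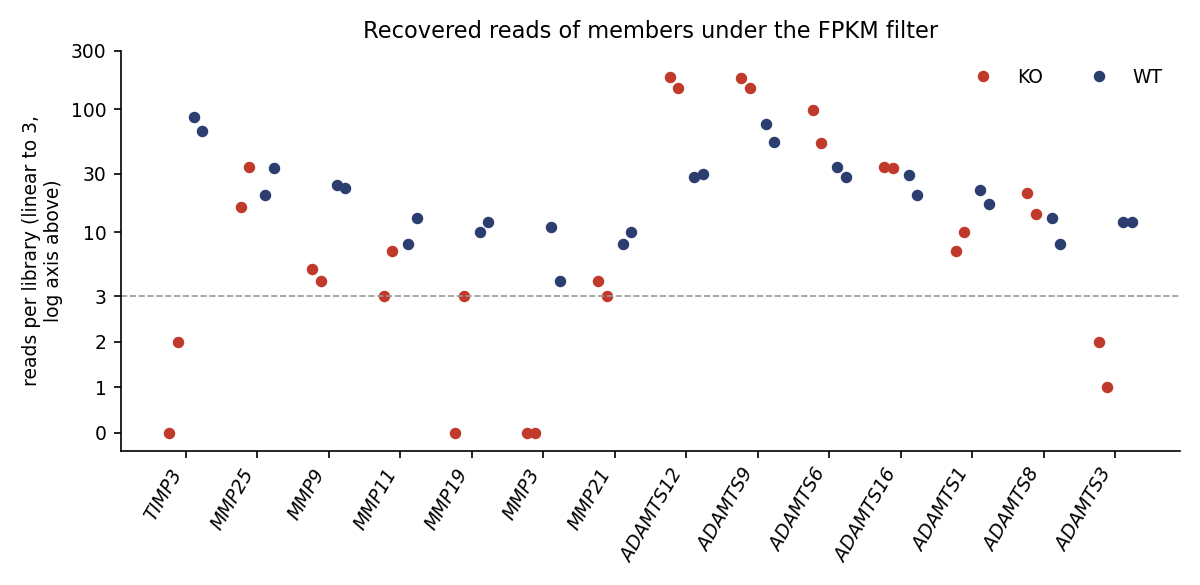
Recovered reads per library (KO red, WT blue) of the 14 genes under the FPKM filter that had at least 10 reads in a library, on an axis that is linear to 3 and logarithmic above; the dashed line marks 3 reads, the floor used for counts of 0. ADAMTS12, ADAMTS9 and ADAMTS6 have more reads in both KO libraries, and TIMP3 has 0 and 2 reads in KO against 86 and 67 in WT.

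Summed by family, TIMP transcripts were lower and MMP and ADAMTS transcripts higher in KO, where both protease sums rested on 1 or 2 genes. The 4 TIMP genes summed to 134 and 130 FPKM in KO against 254 and 200 FPKM in WT. The 23 MMP genes summed to 91.1 and 97.6 FPKM in KO against 63.6 and 71.3 FPKM in WT, and the 19 ADAMTS genes to 31.4 and 39.7 FPKM in KO against 22.1 and 23.0 FPKM in WT. The groups did not overlap for any of these sums, and they are given without a test because 2 libraries against 2 cannot give an exact two-sided permutation p below 0.333. The order of the groups in these sums, and in the MMP sum without MMP7 and MMP24, was the same per recovered reads and after quantile normalization, both added after the values were seen. The summed MMP level was 0.679 and 0.752 times the summed TIMP level in KO, against 0.251 and 0.356 times in WT. MMP7 and MMP24 made up 82.5% and 81.5% of the MMP sum in KO against 52.4% and 59.1% in WT. Without these genes the MMP sum was 15.9 and 18.0 FPKM in KO against 30.3 and 29.1 FPKM in WT, so the order of the groups turned round. The higher MMP to TIMP ratio in KO includes MMP7 and MMP24. Without them the MMP sum, like the TIMP sum, was lower in KO. ADAMTS10 made up 62.0% and 64.2% of the ADAMTS sum in KO against 36.6% and 44.2% in WT. Without ADAMTS10 the ADAMTS sum was 11.9 and 14.2 FPKM in KO against 14.0 and 12.8 FPKM in WT, so the groups overlapped. TIMP4 made up 17.1% and 13.2% of the TIMP sum in KO against 32.6% and 26.7% in WT, and TIMP1 made up 52.2% and 59.0% in KO against 35.9% and 44.5% in WT.

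**Figure D5:**
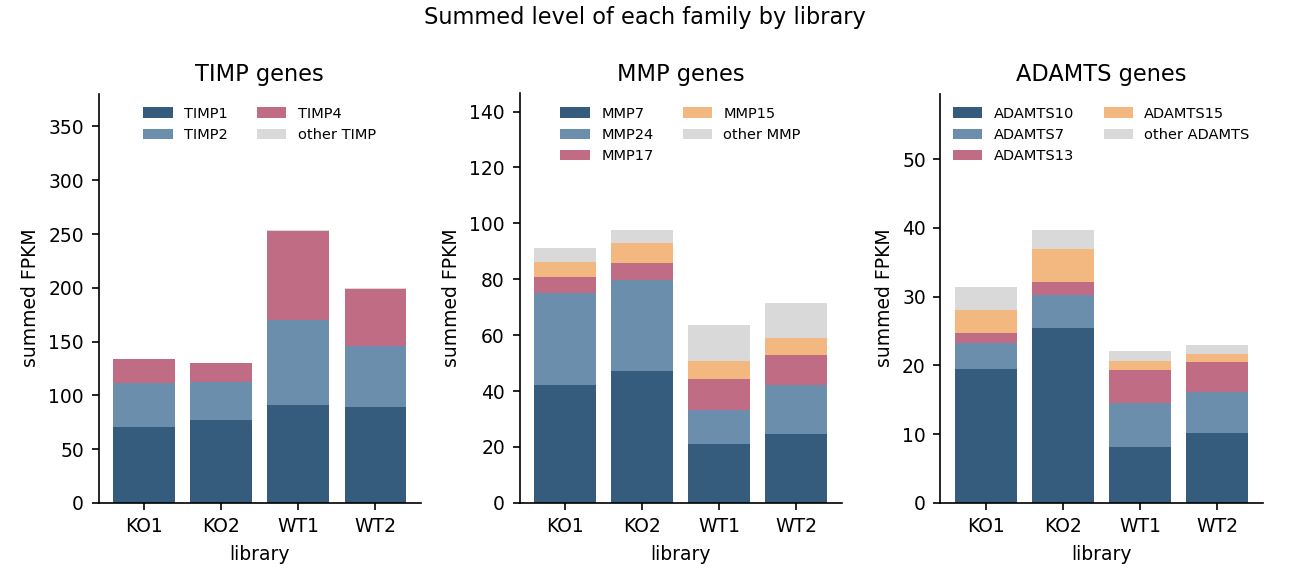
Summed FPKM of the TIMP, MMP and ADAMTS genes in each library, stacked by gene, with KO libraries left of WT libraries and axes starting at 0. The TIMP sum is 134 and 130 FPKM in KO against 254 and 200 in WT, and the blue MMP7 and MMP24 blocks fill most of the MMP bar in KO.

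Genes that act on these proteases were counted from lists by role. Beside the counts of each list stand the shares of all genes tested, 12.1% higher and 11.1% lower by limma. By limma-voom these shares were 14.7% and 15.4%. Of 12 protease activators, 6 were tested, 3 fell and 0 rose, with 0 also at an unadjusted limma p under 0.05 and 1 of 9 tested by limma-voom, PCSK7. PLAU, the urokinase that generates plasmin, had 28.8 and 28.4 FPKM in KO against 150 and 125 FPKM in WT (log2 change -2.22, SE 0.16, limma adjusted p = 0.00312). PLAT, the tissue plasminogen activator, had 1.41 and 1.62 FPKM in KO against 10.06 and 6.80 FPKM in WT (log2 change -1.89, SE 0.20, limma adjusted p = 0.00523). FURIN, which cuts the propeptide of membrane-type MMPs and ADAMTS proteases, had 28.99 and 32.7 FPKM in KO against 44.0 and 48.5 FPKM in WT (log2 change -0.57, limma adjusted p = 0.0432). The FURIN call was lost when any 1 library was left out (adjusted p 0.0997 without KO replicate 1, 0.0515 without KO replicate 2, 0.195 without WT replicate 1 and 0.274 without WT replicate 2, with 0.00912 to 0.274 over 11 alternatives). Plasminogen itself, PLG, had 1 read in total.

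Of 13 other inhibitors, inducers and clearance partners, 8 were tested, and 2 fell and 0 rose. That is near the 23.3% of all genes tested that limma called in either direction. At an unadjusted limma p under 0.05, 1 was higher, RECK, and 0 of 10 were higher by limma-voom. TFPI2, a Kunitz inhibitor of plasmin in the matrix, had 46.3 and 46.2 FPKM in KO against 125 and 102 FPKM in WT (log2 change -1.27, SE 0.16, limma adjusted p = 0.00765, and 0.0524 without WT replicate 1, with 0.000289 to 0.0524 over 11 alternatives). LRP1, the endocytic receptor that clears MMP and TIMP complexes, had 6.47 and 6.24 FPKM in KO against 10.95 and 9.41 FPKM in WT (log2 change -0.60, limma adjusted p = 0.0327). The LRP1 call was lost when any 1 library was left out (adjusted p 0.0660 and 0.0706 without KO replicates 1 and 2, 0.258 and 0.125 without WT replicates 1 and 2, with 0.00879 to 0.258 over 11 alternatives).

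Of 9 ADAM sheddases, the membrane-bound relatives of the ADAMTS proteases, 8 were tested, 3 rose (ADAM9, ADAM12 and ADAM19) and 1 fell. ADAM12 had 3.04 and 2.71 FPKM in KO against 1.29 and 0.978 FPKM in WT (log2 change 0.86, limma adjusted p = 0.0187, lost without KO replicate 1 at 0.0623, WT replicate 1 at 0.0600 and WT replicate 2 at 0.104, with 0.00109 to 0.104 over 11 alternatives). ADAM9 had 110 and 96.4 FPKM in KO against 59.5 and 57.9 FPKM in WT (log2 change 0.80, limma adjusted p = 0.0190, lost at 0.129 without either WT replicate, with 0.00262 to 0.129 over 11 alternatives). ADAM28 had 0.342 and 0.365 FPKM in KO against 1.16 and 1.04 FPKM in WT and passed only narrowly (log2 change -0.63, limma adjusted p = 0.0499). It lost the call under 8 of 11 alternatives, among them without KO replicates 1 and 2 (adjusted p = 0.109 and 0.102) and without WT replicates 1 and 2 (0.174 and 0.134), with a range of 0.00121 to 0.174, and it passed the filter through the WT libraries alone.

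Of 7 ADAMTS-like proteins, which lack the protease domain, 3 were tested and 0 passed in limma, with 2 lower at an unadjusted p under 0.05 and 3 of 5 lower by limma-voom (ADAMTSL3, ADAMTSL5 and PAPLN). ADAMTSL3 had 0 reads in both KO libraries against 21 and 19 reads in WT, and entered that test through the WT libraries alone. THSD4 had 14.1 and 12.7 FPKM in KO against 15.3 and 13.5 FPKM in WT (log2 change -0.09, limma adjusted p = 0.674), with overlapping groups. ADAMTSL5 had 1.23 and 1.75 FPKM in KO against 2.81 and 2.44 FPKM in WT, and PAPLN 1.03 and 1.18 FPKM in KO against 2.0 and 2.05 FPKM in WT (limma adjusted p = 0.0733 and 0.0587). Of 7 substrates, 3 were tested, 1 rose and 1 fell. VCAN, the proteoglycan versican that ADAMTS9 and ADAMTS15 cut, had 16.1 and 11.8 FPKM in KO against 1.80 and 1.50 FPKM in WT, 8.47-fold higher (log2 change 2.49, SE 0.18, limma adjusted p = 0.00315). HSPG2, the basement membrane proteoglycan perlecan, had 7.81 and 8.40 FPKM in KO against 18.3 and 17.6 FPKM in WT (log2 change -1.06, SE 0.13, limma adjusted p = 0.00672, and 0.0540 without WT replicate 1, with 0.000342 to 0.0540 over 11 alternatives). VWF, the substrate of ADAMTS13, and COMP, that of ADAMTS7 and ADAMTS12, had at most 8 reads and 2 reads in any library.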

How the data were processed

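RNA from HFL1 cells was sequenced on an Illumina NovaSeq, per the labels' protocols, in 2 KO and 2 WT libraries. Paired-end reads were aligned with HISAT2 2.0.5, per the submitters' processing notes, which name the builds hg38 and mm10. The FPKM values analysed are the authors' deposited values, 1 per gene and library, for 58735 genes. Which counter, strand setting, annotation and scaling the authors used is not given in the sources used here. Coordinates of all 58735 genes equal those of GENCODE release 29 on GRCh38. FPKM multiplied by gene length gave whole reads for 100% of values (tolerance 0.01).

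Log2(FPKM + 1) was tested with limma 3.58.1 in R 4.3.3 (trend in the prior, prior df 3.54, residual df 2, no block) over 14100 genes with at least 1 FPKM in at least 2 libraries. P-values were adjusted by Benjamini-Hochberg over all genes tested, and folds are ratios of mean FPKM. The log2(FPKM + 1) scale understates changes of low genes. Limma-voom on recovered reads (at least 10 reads in at least 2 libraries, 17139 genes, prior df 8.56) was added after the values were seen. Read ratios are scaled by the depth divisor of the deposited FPKM. It was 0.990 and 0.986 times the recovered reads in KO and 1.03 and 1.01 times in WT. The ratios carry exact 95% intervals that, like the floor of 3 reads, cover counting error only. The fits were also run on simulated counts with known changes. These had the same extra spread for all genes and no effect shared by same-numbered libraries. That run therefore does not show how the fits perform on the real libraries.

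Named genes were CALU, all of the 46 genes, and up to 3 genes of each list by role, those past the threshold by size of change or else the most abundant. ADAM19, ADAMTSL3, COMP, PCSK7, PLG, RECK, VWF, the overlapping genes and the markers were named outside that rule, after their values were seen. Members, lists and markers were chosen with earlier results of these data known. The alternatives were other pseudocounts, filters, quantile normalization, a replicate block, limma-voom and leaving out each library.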

Additional observations from a re-analysis of the deposited data

How the results depend on the processing

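With pseudocounts of 0.1 and 0.5 FPKM and with quantile normalization, all 10 calls among the 46 genes held. MMP28, among these 10, had passed the filter through the WT libraries only. With no filter on low values (genes with a read in any library) 183 genes of all rose and 193 fell in limma. In that fit 0 of the 46 rose and 0 fell, with 6 and 13 at an unadjusted limma p under 0.05. The limma adjusted p of the 10 was 0.0586 to 0.129, and the cause was not tested. Limma-voom was not run without its filter on reads. With a filter of at least 0.1 FPKM, TIMP2 lost its call (limma adjusted p = 0.0745). Of the 28 genes of the set tested there, 5 rose and 7 fell, against 1199 higher and 1236 lower of all 23262 genes tested. ADAMTS12, TIMP3 and MMP9 were gained, and TIMP3 passed this filter through the WT libraries only. ADAMTS9, ADAMTS6 and MMP19, called by limma-voom, did not pass (limma adjusted p 0.0737 to 0.262). Limma-voom on recovered reads called 7 of the 46 higher and 12 lower, where more genes entered the test, and 2525 genes of all higher and 2647 lower. The planned edgeR test was left out because the deposited unit is FPKM, although whole reads could be recovered. Limma-voom on those reads was used in its place. Leaving out 1 library gave 505 to 1321 genes of all higher and 537 to 1260 lower, and 0 to 4 of the 46 higher and 2 to 5 lower; the lone library left was assumed to vary like the other group. Without WT replicate 1, 8 of the 10 calls were lost (TIMP4 and MMP28 held; adjusted p of the lost 0.0561 to 0.258), with 0 higher but 4 higher at an unadjusted p under 0.05. Without WT replicate 2, 4 were lost (MMP7, MMP17, ADAMTS15 and TIMP2, 0.0565 to 0.0990), and without either KO replicate only TIMP2. The log2 change of MMP15 ran from -0.15 to 0.11 with 1 library left out and changed sign without KO replicate 1 (0.11) and without WT replicate 1 (0.03), and MMP25 in limma-voom without KO replicate 1 (0.49) and without WT replicate 2 (0.31). Neither was called. Replicate numbers are not said to pair libraries; the differences between same-numbered libraries correlated at 0.411 across genes, in 2 pairs. With the replicate number as a block, 2968 genes of all rose and 2577 fell, and of the 46 genes 4 rose and 8 fell, with MMP14 and ADAMTS7 gained. Genes with fewer than 10 reads in every library entered neither test, and their ratios and bounds cover counting error only.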
